A study of Homo sapiens with 8 samples.

Results

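DNA replication genes were described in TeloHAEC, a human aortic endothelial cell line immortalised with telomerase, grown with estradiol or without it. The set holds 52 genes, chosen by symbol for a known role in copying DNA, of 34415 genes in the deposited table, and all 52 were found there. RNA was sequenced from 4 libraries of wild-type cells given estradiol, the main estrogen, and 4 control libraries. Palmitic acid, a saturated fatty acid, was in the medium of all 8 libraries to imitate an atherosclerosis-prone setting, so cells with and without it are not compared here. The groups follow the sample titles, which give palmitic acid for all libraries and estradiol for 4; the treatment field of the estradiol libraries names palmitic acid only, and that of the others reads control. Both groups are the same line and no label ties a replicate to its own culture or experiment; p-values therefore reflect variation among these 8 libraries alone, and that variation may be technical. For the doses and times, nothing is stated in the sources used here.

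A cell copies its genome once per division by separating permission from action. In G1 the origin recognition complex, CDC6 and CDT1 load rings of MCM helicase onto DNA, which is called licensing. At the start of S phase, cyclin-dependent kinases drive CDC45 and the GINS complex onto those rings, the helicase opens the helix, and primase, polymerases, the PCNA clamp and its loader copy the strands. Most of the genes are switched on together in late G1 by E2F transcription factors, so their transcripts are widely read as a sign of cycling cells. In bulk RNA, fewer cells in S phase and less transcript per cell cannot be told apart.

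Recovered depth ran from 33421051 to 39350875 reads in the estradiol libraries and from 37508025 to 39899258 in the control libraries. All 10 endothelial markers checked reached a mean of 1 FPKM (fragments per kilobase of gene length, scaled to the library's total fragments), and their summed level was 489 to 638 FPKM in estradiol and 487 to 673 FPKM in control libraries. Of the fibroblast and smooth muscle markers 0 of 8 reached 1 FPKM, with LUM and DES at 0 in every library. Of the leukocyte markers 1 of 6 did (CD68; CD3E was at 0), with sums of 31.1 to 42.8 and 33.5 to 45.3 FPKM in estradiol and control libraries, and of the epithelial markers 3 of 6 (KRT18, KRT19 and CLDN7), with sums of 77.1 to 104 and 75.6 to 118 FPKM. Estradiol replicate 4 and control replicate 3 stood apart from the other 6 libraries on the first principal component of all tested genes, which held 68.7% of the variance, and results below are given with and without them where they matter.

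No DNA replication gene passed the test between estradiol and control libraries. Summed over the 52 genes, the level was 336.7 ± 3.66 FPKM in estradiol libraries and 332.4 ± 3.14 FPKM in control libraries (SD, n = 4 each). By library the sum was 340.1, 334.6, 332.6 and 339.5 FPKM with estradiol and 330.4, 332.1, 330.2 and 337.0 FPKM in control. The groups overlapped, and the whole range over the 8 libraries was narrow beside the range of single genes. The sum hides opposite shifts. Clamp and clamp loader genes summed to 75.85 FPKM in estradiol replicate 4, against 57.56 to 59.91 FPKM in the other estradiol libraries. Licensing genes summed to 51.94 FPKM there, against 58.45 to 60.88 FPKM. In control replicate 3 the same classes stood at 70.27 and 51.84 FPKM, the highest and lowest of the control libraries. Of the 52 genes, 42 reached a mean of 1 FPKM and entered the limma fit on log2(FPKM + 1), and 0 passed an adjusted p of 0.05 in either direction, beside 0.0% of the 10720 genes tested. At an unadjusted p under 0.05 there was 1 member, RPA3, beside 0.243% of all genes. A well-calibrated test gives about 5% where no gene differs, so the test was conservative in these libraries. Its lack of calls therefore does not show that levels were equal. limma-voom on the recovered reads also gave 0 members, with 1 at an unadjusted p under 0.05. The median log2 fold change of the 42 was -0.0021, with 20 positive and 22 negative, beside -0.0005 over all tested genes, of which 49.5% were positive. Without control replicate 3 the median of the members was -0.0498, and over the 18 members at 5 FPKM or more it was 0.0376. Their 95% intervals lay between -0.46 and 0.346, so a change larger than these bounds on the log2(FPKM + 1) scale fell outside the interval of every tested member. That scale understates the change of low genes.

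**Figure D1:**
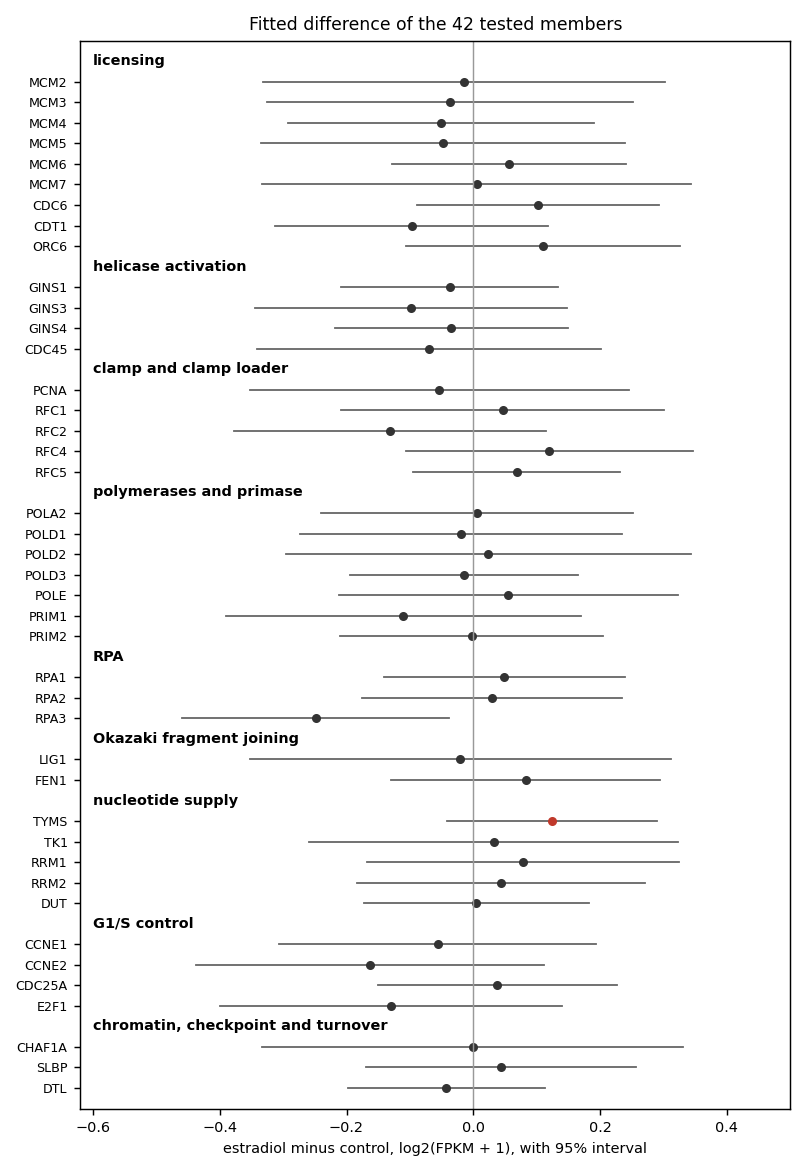
Fitted difference, estradiol minus control, on the log2(FPKM + 1) scale (x axis) for each of the 42 tested DNA replication genes (rows, by function); points are estimates and lines 95% intervals from limma. Only the interval of RPA3 (-0.46 to -0.038) lies wholly on one side of 0, and the red point marks TYMS, the only gene whose groups did not overlap.

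The promoters of these genes are shown because E2F factors switch on many of them, and because an estradiol study raises the question of estrogen response elements. RefSeq promoters (GRCh38.p14, 250 bases before to 50 after the start) were matched for 45 of the 52 genes, the others being MCM4, MCM5, GINS4, POLD3, RPA2, RPA3 and CCNE2. The E2F words searched on both strands were TTTGGCGC, TTTCCCGC, TTTGCCGC and TTTCGCGC. They were present in 23 of the 45 promoters (51.1%), against 3.33% of all 27305 promoters and 5.53% of the 8746 promoters of tested genes. CCAAT, the box bound by NF-Y, was in 57.8% of member promoters and 37.3% of those of tested genes, and GGGCGG, a GC box that can overlap E2F words, was in 71.1% and 71.4%. The consensus palindromic estrogen response element was in 0 of the 45, in 0.0659% of all promoters and in 0.0114% of those of tested genes. The word is so rare in these windows that 0 of 45 does not tell the members from other genes. The last 180 bases before the start of 4 of them are printed below, chosen to show a licensing helicase subunit, the clamp, the gene whose groups did not overlap and an E2F factor. Capitals mark the E2F words on either strand, and overlapping words run together.
MCM6 (chr2:135876444-135876623, minus strand): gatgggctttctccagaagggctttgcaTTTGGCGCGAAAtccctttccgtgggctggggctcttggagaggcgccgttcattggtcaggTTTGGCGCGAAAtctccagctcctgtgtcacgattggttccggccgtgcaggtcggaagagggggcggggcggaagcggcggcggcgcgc
PCNA (chr20:5126623-5126802, minus strand): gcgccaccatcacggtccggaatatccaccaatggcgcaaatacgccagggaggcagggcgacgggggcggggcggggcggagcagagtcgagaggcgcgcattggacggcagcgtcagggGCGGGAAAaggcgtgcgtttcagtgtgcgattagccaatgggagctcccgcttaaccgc
TYMS (chr18:657473-657652, plus strand): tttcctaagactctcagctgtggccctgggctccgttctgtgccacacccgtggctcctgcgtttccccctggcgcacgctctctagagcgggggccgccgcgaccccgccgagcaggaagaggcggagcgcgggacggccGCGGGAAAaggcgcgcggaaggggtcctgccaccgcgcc
E2F1 (chr20:33686386-33686565, minus strand): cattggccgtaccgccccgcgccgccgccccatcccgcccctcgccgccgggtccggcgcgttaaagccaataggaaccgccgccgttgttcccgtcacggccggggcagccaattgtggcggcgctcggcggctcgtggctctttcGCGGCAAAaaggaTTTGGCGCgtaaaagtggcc
In MCM6 different words overlap at -152 and -148 from the start and again at -90 and -86. In PCNA and TYMS the same letters, GCGGGAAA, occur at -59 and -39. Members with an E2F word had a median log2 fold change of -0.0174 (16 tested) and those without one 0.0318 (19 tested), with positive values in 7 and 12. The groups also differed in level, with medians of 2.27 and 4.84 FPKM over the 23 and 22 members, tested or not. The E2F matches are letters in a window and do not show binding. A promoter without these exact words may still be bound by E2F, so the split does not divide E2F targets from other genes.

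Levels differed far more between members than between groups. The mean over all libraries ran from 0.011 FPKM for E2F2 to 45.5 FPKM for SLBP, with a median of 3.04 FPKM, and 11 members were at 10 FPKM or more. Clamp and clamp loader genes held 18.9% of the members' summed FPKM, nucleotide supply genes 17.7%, licensing genes 17% and the chromatin and turnover class 15.6%, most of it SLBP.

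**Figure D2:**
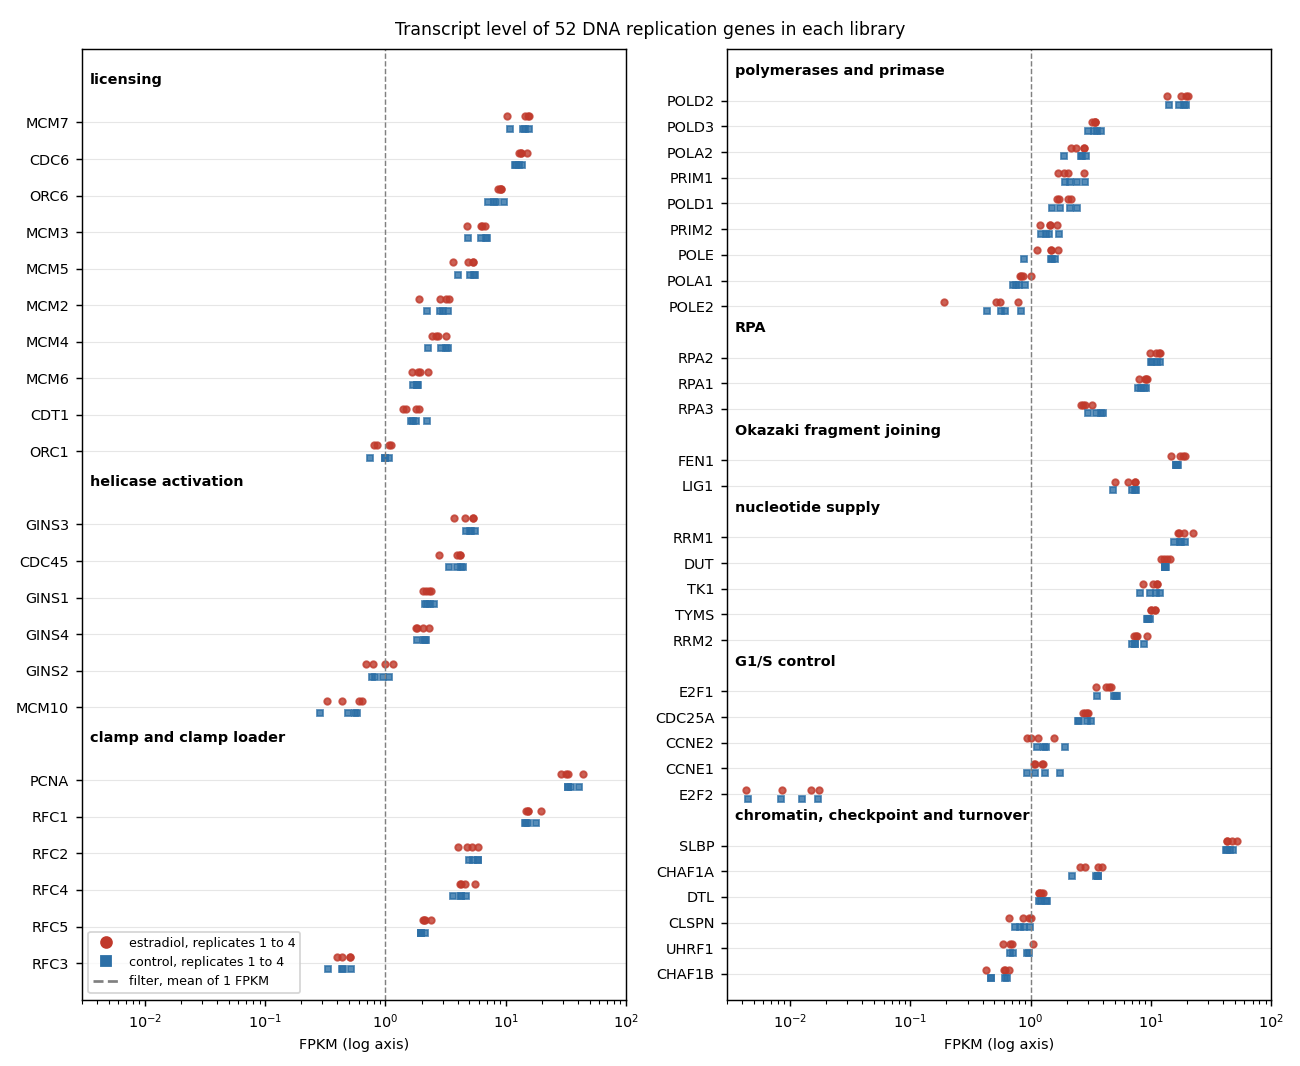
FPKM of each of the 52 DNA replication genes (log x axis) in the 4 estradiol libraries (circles) and the 4 control libraries (squares), in rows by function; the dashed line is the mean of 1 FPKM needed to enter the fit. Levels span from 0.011 FPKM (E2F2) to 45.5 FPKM (SLBP) on average, while circles and squares of 1 gene lie close together.

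Licensing genes had values in both directions. Of the 9 tested of 10, 4 were positive and 5 negative, with log2 fold changes from -0.098 (CDT1) to 0.11 (ORC6) and 0 called in either direction. CDC6, the loader ATPase that brings MCM rings to the origin, measured 13.3, 12.9, 13.5 and 15.1 FPKM in estradiol libraries and 12, 12.9, 13.8 and 12.3 FPKM in control libraries. The highest value was estradiol replicate 4 and the highest control value control replicate 3, and the groups overlapped (log2 fold change 0.10 ± 0.0854 SE, limma adjusted p = 0.999989). ORC6, the smallest subunit of the origin recognition complex, measured 9.16, 8.58, 9.19 and 9.03 FPKM with estradiol and 7.15, 8.25, 9.78 and 8.04 FPKM in control. Its estradiol values were close together and lay inside the wider control range (0.11 ± 0.0966 SE, adjusted p = 0.999989). ORC1, the ATPase of the same complex, was under the filter at 0.963 ± 0.157 FPKM with estradiol and 0.951 ± 0.142 FPKM in control (SD, n = 4 each; exact permutation p = 0.943). CDT1, the other loading factor, measured 1.65 ± 0.235 FPKM in estradiol and 1.83 ± 0.262 FPKM in control libraries (SD, n = 4 each).

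The MCM2 to MCM7 subunits form a ring with a copy of each, but their transcripts were at unequal levels. MCM7 was the highest in all 8 libraries, at 15.6, 15.4, 14.6 and 10.2 FPKM in estradiol libraries and 14.0, 14.6, 10.9 and 15.6 FPKM in control libraries. Estradiol replicate 4 and control replicate 3 were the lowest of their groups, and the groups overlapped (log2 fold change 0.0051 ± 0.152 SE). MCM6 was the lowest subunit in 7 of the 8 libraries, at 1.94 ± 0.251 FPKM with estradiol and 1.82 ± 0.0777 FPKM in control (SD, n = 4 each). The ratio of MCM7 to MCM6 was 7.38 ± 2.07 in estradiol and 7.57 ± 0.859 in control libraries (SD, n = 4 each), with a range of 4.48 to 9.38. Its low end fell in estradiol replicate 4, where MCM7 (57.6% GC) was lowest of all libraries and MCM6 (43.1% GC) highest, at 2.27 FPKM. These ratios also depend on the authors' gene lengths, 3016 bases for MCM7 and 3753 for MCM6. MCM3 and MCM5 lay between them, at 6.02 ± 0.848 and 4.81 ± 0.80 FPKM with estradiol against 6.21 ± 0.974 and 5.0 ± 0.709 FPKM in control, and MCM2 and MCM4 at 2.83 ± 0.647 and 2.76 ± 0.316 FPKM with estradiol against 2.85 ± 0.472 and 2.91 ± 0.47 FPKM in control (SD, n = 4 each).

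The helicase activation genes, whose products turn the loaded MCM ring into a working helicase, had no call. Of 6 genes 4 were tested, all negative, with log2 fold changes from -0.099 to -0.035. GINS3 measured 4.58, 5.33, 5.37 and 3.74 FPKM with estradiol and 5.07, 5.17, 4.66 and 5.61 FPKM in control, and its low estradiol value came from replicate 4 (log2 fold change -0.0986 ± 0.11 SE, limma adjusted p = 0.999989). CDC45, which bridges MCM and GINS, measured 3.95, 4.17, 4.19 and 2.78 FPKM with estradiol and 3.95, 4.38, 3.36 and 4.26 FPKM in control. Again estradiol replicate 4 and control replicate 3 were the lowest, and without estradiol replicate 4 the log2 fold change turned to 0.0373 from -0.0707 with all libraries. GINS1 and GINS4 averaged 2.27 and 2.04 FPKM over all libraries. GINS2, of the same complex, was under the filter at 0.908 ± 0.21 FPKM with estradiol and 0.908 ± 0.139 FPKM in control (SD, n = 4 each; exact permutation p = 1), so GINS3 stood 4.63 to 6.35 times above GINS2. MCM10, which helps activate the helicase, was also under the filter, at 0.504 ± 0.147 FPKM with estradiol and 0.478 ± 0.135 FPKM in control (SD, n = 4 each; exact permutation p = 0.80).

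Among the polymerases and primase, 7 of 9 genes were tested, 3 were positive and 4 negative, and 0 were called, with log2 fold changes from -0.111 (PRIM1) to 0.055 (POLE). PRIM1, the catalytic subunit of primase, which lays down the RNA primer, measured 1.88, 2.06, 1.70 and 2.79 FPKM with estradiol and 2.45, 2.12, 2.85 and 1.95 FPKM in control. The highest library of each group was estradiol replicate 4 and control replicate 3 (log2 fold change -0.11 ± 0.125 SE, limma adjusted p = 0.999989). POLE, the catalytic subunit of the leading-strand polymerase epsilon, measured 1.47, 1.70, 1.48 and 1.14 FPKM with estradiol and 1.47, 1.52, 0.88 and 1.59 FPKM in control, where the same pair of libraries was lowest. POLD2, an accessory subunit of the lagging-strand polymerase delta, was the most abundant member of the class at 17.8 ± 3.05 FPKM with estradiol and 17.5 ± 2.39 FPKM in control (SD, n = 4 each). It stood 8.03 to 10.3 times above the catalytic subunit POLD1, the lowest of the 3 delta subunits in the set in all 8 libraries, while POLD3 averaged 3.41 FPKM. POLD4, a delta subunit outside the set, stood at 26.4 ± 5.22 FPKM with estradiol and 28.3 ± 4.65 FPKM in control (SD, n = 4 each). POLA1 and POLE2 were under the filter. POLA1, the catalytic subunit of polymerase alpha, measured 0.823, 0.869, 0.831 and 1.01 FPKM with estradiol and 0.714, 0.755, 0.895 and 0.809 FPKM in control (exact permutation p = 0.20). POLE2 measured 0.19, 0.556, 0.52 and 0.779 FPKM with estradiol, from 16 to 65 reads, and 0.437, 0.573, 0.83 and 0.617 FPKM in control, from 37 to 67 reads (exact permutation p = 0.514).

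The sliding clamp and its loader showed no call among 5 tested genes of 6, 3 positive and 2 negative. PCNA, the ring that holds polymerases on DNA, measured 31.6, 29.1, 32.8 and 44.1 FPKM with estradiol and 33.1, 35.0, 40.5 and 33.1 FPKM in control. Estradiol replicate 4 and control replicate 3 were the highest, above all the other libraries, and the remaining values ran from 29.1 to 35.0 FPKM (log2 fold change -0.0541 ± 0.134 SE). RFC2 and RFC4, small subunits of the loader, had opposite signs. RFC2 averaged 4.99 ± 0.796 FPKM with estradiol and 5.53 ± 0.465 FPKM in control (log2 fold change -0.13 ± 0.11 SE), and RFC4 averaged 4.65 ± 0.607 FPKM with estradiol and 4.19 ± 0.424 FPKM in control (0.12 ± 0.101 SE; SD over n = 4 each). RFC1, the large subunit, was the highest of the 5 in every library and RFC3 the lowest, with a ratio of 30.6 to 44.0. RFC3, under the filter, measured 0.461 ± 0.0536 FPKM with estradiol and 0.434 ± 0.0751 FPKM in control, on 151 to 220 reads (SD, n = 4 each; exact permutation p = 0.629). FPKM divides by the authors' gene length, which the values put at 11245 bases for RFC3 and 1365 for RFC4, so levels of these subunits depend on those models.

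RPA, the trimer that coats single-stranded DNA, held the lowest unadjusted p among the members. RPA3, its smallest subunit, measured 2.86, 2.64, 2.73 and 3.24 FPKM with estradiol and 3.03, 3.51, 4.00 and 3.87 FPKM in control. Estradiol replicates 1, 2 and 3 lay below all control libraries, and estradiol replicate 4 was above control replicate 1, so the groups overlapped. From the recovered reads, RPA3 had 227, 178, 217 and 254 with estradiol and 241, 282, 303 and 312 in control. The log2 fold change was -0.25 ± 0.0941 SE with a limma p of 0.0251, which did not pass after adjustment (adjusted p = 0.999989). It was -0.236 between estradiol replicate 4 and control replicate 3 and -0.253 among the other 6 libraries. RPA1 and RPA2, the other subunits, did not share the direction: RPA1 averaged 8.83 ± 0.559 FPKM with estradiol and 8.51 ± 0.612 FPKM in control, and RPA2 11.1 ± 0.93 FPKM with estradiol and 10.9 ± 0.821 FPKM in control (SD, n = 4 each). RPA2 exceeded RPA3 by 3.92 ± 0.597 times in estradiol and 3.04 ± 0.273 times in control libraries (SD, n = 4 each).

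The genes for joining Okazaki fragments, the short pieces of the lagging strand, were close between groups. FEN1, the flap nuclease, measured 17.6, 19.3, 18.6 and 14.8 FPKM with estradiol and 16.1, 16.6, 16.2 and 16.9 FPKM in control. Estradiol replicates 1 to 3 lay above all control libraries and replicate 4 below them (log2 fold change 0.083 ± 0.095 SE, limma adjusted p = 0.999989). Exons of TMEM258, on the opposite strand, cover 7.23% of FEN1 exon bases, and exons of FADS2, on the same strand, 2.13%. TMEM258 stood at 136 ± 21.1 FPKM with estradiol and 130 ± 20.9 FPKM in control. FADS2 stood at 176 ± 23.8 and 186 ± 30.6 FPKM (SD, n = 4 each). Their part in the FEN1 values was not tested. LIG1, the ligase that seals the nicks, measured 6.49, 7.32, 7.40 and 5.04 FPKM with estradiol and 7.40, 7.01, 4.87 and 7.47 FPKM in control. Its lowest values were again estradiol replicate 4 and control replicate 3, and the fitted difference was -0.0204 ± 0.148 SE.

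All 5 nucleotide supply genes had positive values, from 0.005 (DUT) to 0.124 (TYMS), with a median log2 fold change of 0.0434 and 0 called. The shared sign did not hold throughout. With estradiol replicate 4 and control replicate 3 set aside, DUT was -0.014 and the rest ran from 0.012 (TK1) to 0.135 (TYMS). Without estradiol replicate 4 alone, RRM1 was -0.0045 and RRM2 -0.0261, while TYMS was 0.138. TYMS, thymidylate synthase, which makes thymidine monophosphate from deoxyuridine monophosphate, measured 10.8, 10.8, 9.98 and 10.1 FPKM with estradiol and 9.81, 9.40, 9.39 and 9.26 FPKM in control. Every estradiol library was above every control library, which held for 1 of the 42 tested members beside 0.532% of all tested genes in either direction, 0.308% in this one and 0.224% in the other. Its log2 fold change was 0.12 ± 0.074 SE, with a limma adjusted p of 0.999989. The difference was 0.092 between estradiol replicate 4 and control replicate 3, and 0.135 among the other 6 libraries. The exons of ENOSF1, on the opposite strand, cover 58.2% of TYMS exon bases in GENCODE 29, and no source used here says whether strand was used in counting. ENOSF1 measured 4.48 ± 0.569 FPKM with estradiol and 4.08 ± 0.369 FPKM in control (SD, n = 4 each), and its part in the TYMS values was not tested. RRM1 and RRM2, the subunits of ribonucleotide reductase, which makes deoxyribonucleotides, kept a near-constant ratio. RRM1 averaged 18.7 ± 2.56 FPKM with estradiol and 17.6 ± 1.51 FPKM in control, and RRM2 7.89 ± 0.912 FPKM with estradiol and 7.62 ± 0.781 FPKM in control, and RRM1 exceeded RRM2 by 2.37 ± 0.126 times with estradiol and 2.32 ± 0.173 times in control (SD, n = 4 each). Both were highest in estradiol replicate 4 and control replicate 3. TK1, thymidine kinase of the salvage route, was lowest in that pair, with averages of 10.4 ± 1.23 FPKM with estradiol and 10.2 ± 1.72 FPKM in control, and DUT, which clears dUTP, stood at 13.3 ± 0.918 FPKM with estradiol and 13.2 ± 0.186 FPKM in control (SD, n = 4 each).

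**Figure D3:**
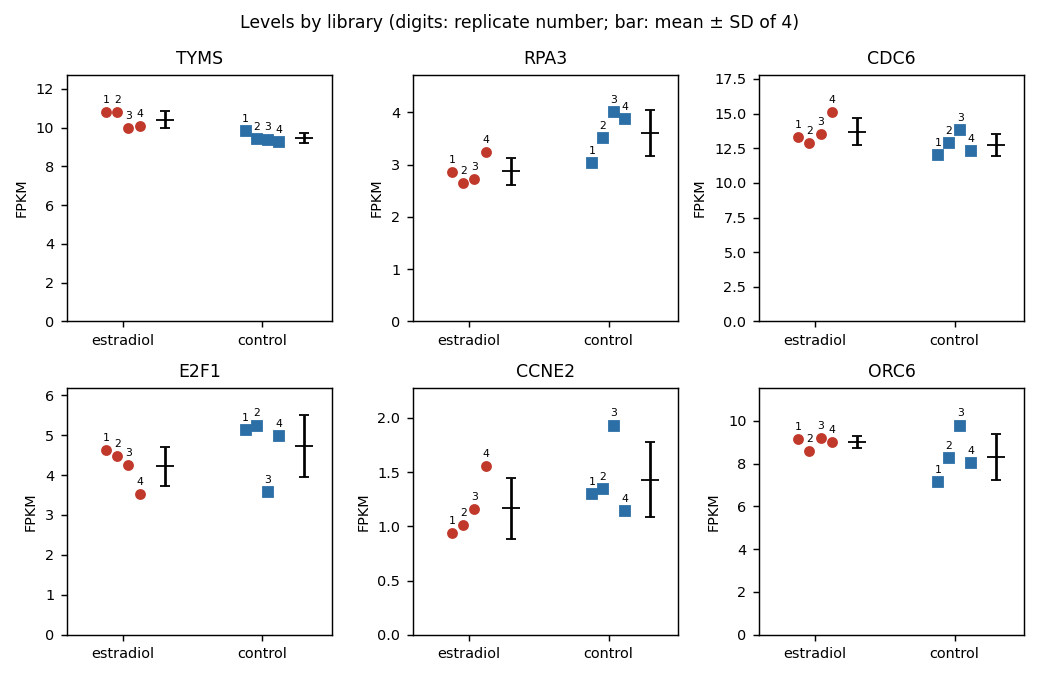
FPKM of 6 genes in each estradiol library (circles, left) and control library (squares, right), with replicate numbers and the mean ± SD of 4 libraries as a bar beside each group; axes start at 0. TYMS is the only one whose groups do not overlap, and estradiol replicate 4 and control replicate 3 are the highest libraries of their groups for CCNE2 and CDC6 and the lowest for E2F1.

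G1/S control genes carried the most negative class median, -0.0926 over 4 tested genes of 5, with 1 positive, 3 negative and 0 called. CCNE2, cyclin E2, which activates CDK2 at S phase entry, measured 0.934, 1.01, 1.16 and 1.56 FPKM with estradiol and 1.30, 1.34, 1.93 and 1.14 FPKM in control. Its groups overlapped, with a log2 fold change of -0.16 ± 0.122 SE (limma adjusted p = 0.999989), -0.196 between estradiol replicate 4 and control replicate 3 and -0.152 among the other 6. Leaving out control replicate 3 gave -0.069, leaving out estradiol replicate 4 gave -0.246, and it was -0.27 with a pseudocount of 0.1 and -0.285 by limma-voom. The exons of INTS8, on the opposite strand, cover 47.5% of CCNE2 exon bases, and INTS8 stood at 5.38 ± 1.23 FPKM with estradiol and 5.30 ± 1.28 FPKM in control (SD, n = 4 each); its part in the CCNE2 values was not tested. E2F1, the activator of the S phase programme, measured 4.63, 4.48, 4.24 and 3.52 FPKM with estradiol and 5.13, 5.24, 3.58 and 4.97 FPKM in control. Apart from estradiol replicate 4 and control replicate 3, which were nearly equal, its estradiol values lay below its control values (log2 fold change -0.13 ± 0.12 SE with all libraries and -0.166 among those 6, adjusted p = 0.999989 and 0.992). CCNE1, cyclin E1, averaged 1.16 ± 0.10 FPKM with estradiol and 1.27 ± 0.362 FPKM in control, and CDC25A, the phosphatase that frees CDK2, 2.89 ± 0.121 FPKM with estradiol and 2.80 ± 0.335 FPKM in control (SD, n = 4 each). E2F2, a close relative of E2F1, had 1 to 4 reads in each library of both groups, or 0.0113 ± 0.00597 FPKM with estradiol and 0.0106 ± 0.00541 FPKM in control (SD, n = 4 each; exact permutation p = 0.83), and a difference was not detectable at this depth.

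Genes for chromatin assembly, the replication checkpoint and turnover had 3 of 6 members under the filter and 0 called. SLBP, which binds histone mRNA, was the most abundant of all members, at 47.1, 42.6, 43.2 and 52 FPKM with estradiol and 45.5, 42.9, 48.6 and 41.9 FPKM in control, with estradiol replicate 4 and control replicate 3 highest (log2 fold change 0.0437 ± 0.0949 SE). DTL, which targets CDT1 for destruction in S phase, had the smallest standard error of the tested members, at 1.21 ± 0.0494 FPKM with estradiol and 1.28 ± 0.0983 FPKM in control (SD, n = 4 each; -0.0424 ± 0.0695 SE). CHAF1A, the large subunit of the histone chaperone CAF-1, averaged 3.23 ± 0.635 FPKM with estradiol and 3.25 ± 0.692 FPKM in control (SD, n = 4 each). Under the filter, its partner CHAF1B stood at 0.575 ± 0.101 FPKM with estradiol and 0.547 ± 0.0903 FPKM in control (SD, n = 4 each; exact permutation p = 0.857). UHRF1, which carries DNA methylation through replication, stood at 0.758 ± 0.203 and 0.821 ± 0.153 FPKM in estradiol and control libraries (SD, n = 4 each; exact permutation p = 0.743). CLSPN, claspin, which passes the stalled-fork signal to CHK1, stood at 0.879 ± 0.151 and 0.86 ± 0.106 FPKM in estradiol and control libraries (SD, n = 4 each; exact permutation p = 0.886). Of the 10 members under the filter, 0 reached an exact permutation p under 0.05, the smallest being 0.20 for POLA1.

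The widest differences among the libraries cut across the groups and separated the members by base composition. Estradiol replicate 4 and control replicate 3 were both below the other 6 libraries for 14 of the 42 tested members (33.3%, beside 43.9% of all tested genes) and both above them for 9 (21.4%, beside 34.6%). With members under the filter counted, the genes below were MCM2, MCM3, MCM5, MCM7, GINS2, CDC45, POLA2, POLD1, POLD2, POLE, RPA1, LIG1, TK1, E2F1, UHRF1 and CHAF1A, with transcripts of 48.2 to 65.0% GC and a median of 56.7%. The genes above were CDC6, PCNA, RFC1, POLA1, POLE2, PRIM1, PRIM2, RRM1, RRM2, CCNE2 and SLBP, with 36.9 to 50.7% GC and a median of 43.5%. Across the 42 members, which are not independent replicates, deviations from the median library and GC content had a Spearman's rho of -0.699 in estradiol replicate 4 and -0.775 in control replicate 3, against -0.209 to 0.496 in the other estradiol and -0.171 to 0.40 in the other control libraries. Over all 10250 genes with a GC value it was -0.848 in estradiol replicate 4 and -0.869 in control replicate 3. LIG1, at 56.4% GC, deviated by -0.434 and -0.475 in estradiol replicate 4 and control replicate 3, and PCNA, at 45.3% GC, by 0.405 and 0.285, on the log2(FPKM + 1) scale. Once each library was corrected for its trend with GC content, the median range of the tested members over the 8 libraries was 0.286 log2 units against 0.441 before, smaller for 31 of 42 members. Over all genes with a GC value it was 0.241 against 0.483 before, smaller for 8568 of 10250. The trend removed was fitted to these same values, so a smaller median range was largely built in. In the remaining members the range grew, as for GINS1 (0.215 to 0.546), SLBP (0.304 to 0.53) and DTL (0.135 to 0.344). The labels name no batch for these libraries.

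**Figure D4:**
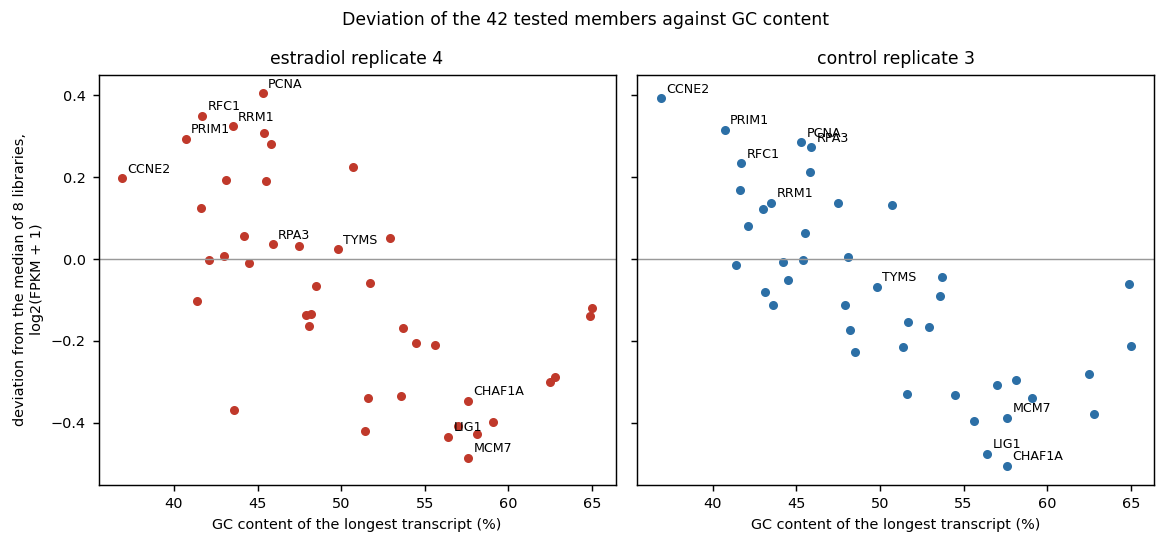
Deviation of each of the 42 tested DNA replication genes from its median over the 8 libraries, in log2(FPKM + 1) (y axis), against the GC content of its longest GENCODE 29 transcript in percent (x axis), in estradiol replicate 4 (left) and control replicate 3 (right). In both libraries many GC-poor members, such as PCNA and PRIM1, lie above 0 and many GC-rich members, such as LIG1, MCM7 and CHAF1A, below it, while GINS3 (43.6% GC) and GINS1 (41.4% GC) lie below 0 in both, with rank correlations of -0.699 and -0.775.

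With that pair handled in the fit, more members reached an unadjusted p under 0.05 and 0 passed after adjustment. A term for the pair gave 5 members (RPA3, TYMS, CCNE2, E2F1 and CDC6), beside 3.27% of all genes, with log2 fold changes of -0.25, 0.12, -0.16, -0.13 and 0.10. Leaving both libraries out also gave 5 (RPA3, E2F1, FEN1, ORC6 and TYMS), beside 3.88% of all genes, with log2 fold changes of -0.253, -0.166, 0.152, 0.181 and 0.135. RPA3, TYMS and E2F1 were in both sets, and their unadjusted limma p values with the term were 0.00307, 0.0167 and 0.0258. The pair was picked from these same data, with no label behind it, so these p values are post hoc. Both fits also share the remaining libraries, so a gene in both sets is not a second piece of evidence. In the fit with the GC trend removed there were 2, RPA3 and CCNE2, beside 2.49% of all genes.

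Other genes of the replication machinery, a list of 64 that includes ORC2 to ORC5, DBF4, topoisomerases and further E2F factors, also gave no call where tested. The 11 under the filter, among them the CDC7 kinase, E2F5 and E2F8, were not tested. Of the 64, 53 were tested and 0 passed an adjusted p of 0.05 by limma, with 0 at an unadjusted p under 0.05. Their median log2 fold change was 0.0112 (32 positive, 21 negative). The smallest p belonged to CDC25C, a mitotic phosphatase, at 2.22 ± 0.144 FPKM with estradiol and 1.93 ± 0.277 FPKM in control (SD, n = 4 each; log2 fold change 0.14 ± 0.0872 SE). NASP, a histone chaperone, followed at 12.7 ± 0.796 FPKM with estradiol and 11.9 ± 1.04 FPKM in control, and NME1, a nucleoside diphosphate kinase, at 12.6 ± 1.62 FPKM with estradiol and 11.7 ± 0.425 FPKM in control (SD, n = 4 each), with log2 fold changes of 0.09 and 0.089.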

How the data were processed

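The authors deposited a single FPKM table, with genes in rows by symbol and libraries in columns. The submitters' processing notes name fastp 0.20.1 and HTSeq; for the aligner, build, annotation and strand setting, nothing is stated in the sources used here. Each deposited FPKM value could be written as a whole number of reads over a whole gene length (152348 values above 0, to within 1e-06 of a whole read). This gave the depth, the reads and the lengths. The smallest length that fitted was kept, so the reads and lengths of genes with few reads may not be unique. Differences were fitted by limma 3.58.1 in R 4.3.3 on log2(FPKM + 1), trend included, for the 10720 genes averaging at least 1 FPKM, two-sided, with Benjamini-Hochberg adjustment over all of them. The code was tested on simulated data with independent noise for each gene. Those data lack the pattern that estradiol replicate 4 and control replicate 3 share, so they do not show how the test performs in these libraries. For members under that level, exact permutation tests (two-sided, 70 relabellings) were used, with 0.0286 as the smallest possible p. GC content was taken from GENCODE 29 transcripts, for 95.6% of tested genes. Members and lists were chosen with earlier results of these data known. In each class the members with the smallest p, the most and least abundant members, those whose groups did not overlap and those under the filter were named with values, and others were given to complete their complex or class. No label says whether replicate numbers pair the libraries. Deviations of same-numbered libraries from their group means correlated at 0.616, 0.0728, -0.478 and -0.737 for replicates 1 to 4. Estradiol replicate 4 and control replicate 3 weigh heavily in these values under different numbers, so the values cannot settle whether libraries were paired.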

Additional observations from a re-analysis of the deposited data

Results flagged for a closer look

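In 7 of the 104 groups of 4 libraries (52 genes, 2 groups each), 1 library lay far from the other 3, where chance gives about 5% of groups. That count is close to the chance rate, and the groups share the same 8 libraries. The share over all genes was not computed, so the flags are listed without reading them as a result about these genes. Estradiol replicate 4 stood apart for CDC45, at 2.78 FPKM against 3.95 to 4.19 in the other estradiol libraries, and for RFC1, at 19.6 FPKM against 14.7 to 15.4. Control replicate 3 stood apart for POLE, at 0.88 FPKM against 1.47 to 1.59 in the other control libraries, for E2F1, at 3.58 against 4.97 to 5.24, and for CHAF1A, at 2.21 against 3.51 to 3.64. Estradiol replicate 2 was low for POLD3, at 3.25 FPKM against 3.42 to 3.45, and control replicate 1 was high for RFC5, at 2.15 FPKM against 1.96 to 1.99. Of the 7, 5 fell in the pair of libraries that stood apart over all genes.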

How the results depend on the processing

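In each of the 19 alternatives the count of called members and of all called genes stayed at 0, the lowest adjusted p being 0.791 for a member (without control replicate 3) and 0.0809 for any gene (without a filter). The unadjusted counts over all genes moved from 26 to 437 without a filter, 4 at a mean of 5 FPKM or more, 416 with estradiol replicate 4 and control replicate 3 both left out, 351 with a term for them and 255 with the GC trend removed. The median log2 fold change of the members ranged from -0.0498 (without control replicate 3) to 0.0187 (without control replicate 4) with 1 library left out, where the SD of the members' mean level between libraries was 0.0435. It was 0.0376 for the 18 members at 5 FPKM or more, and the cause was not tested. With the replicate block the median was -0.0021 and 0 genes were called, with 11 at an unadjusted p under 0.05. Of the 22 named and tested members, 10 changed sign when 1 library was left out, with ranges of -0.0946 to 0.139 for MCM7, -0.0672 to 0.141 for POLD2, -0.145 to 0.0836 for LIG1, -0.177 to 0.0179 for PCNA, -0.134 to 0.0373 for CDC45, -0.0517 to 0.118 for POLE, -0.0018 to 0.0837 for RPA2, -0.0045 to 0.128 for RRM1, -0.0261 to 0.104 for RRM2 and -0.0131 to 0.0838 for SLBP. GINS2 was -0.0036 in the unfiltered fit. RPA3 stayed between -0.311 and -0.208 and TYMS between 0.106 and 0.142 with 1 library left out. Kept in sign but wider were CCNE2 (-0.246 to -0.069), E2F1 (-0.234 without control replicate 3 to -0.0617 without estradiol replicate 4), CDC6 (0.0575 without estradiol replicate 4 to 0.138), FEN1 (0.038 without estradiol replicate 2 to 0.159 without estradiol replicate 4) and ORC6 (0.0485 without control replicate 1 to 0.183 without control replicate 3). Depth limits E2F2, with 1 to 4 reads per library.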
